A study of Homo sapiens with 33 samples.

Results

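CYP4Z1, CTSK, CLCA2 and LINC00641 are the 4 genes described here, out of 59428 genes in the count table. They were taken by name and had been chosen by their measured RNA level, which was higher in cells given SY200, V50 or both agents than in control cells, so that rise is described below without a test. None of the 4 belongs to the genes that inhibitors of transcriptional kinases are best known to lower. The levels bore the choice out only in part. CYP4Z1 and CLCA2 were detectable in a single line, LINC00641 was higher in both lines, and CTSK was higher with all treatments in one line and mainly with SY200 in the other.

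The study profiled 3′ ends of polyadenylated RNA from a pair of breast cancer lines with the labels MDA-MD-468 and MDA-MD-231, widely known as MDA-MB-468 and MDA-MB-231 and established from triple-negative tumours. In the inhibitor part, 22 libraries of wild-type genotype covered SY200, V50 and SY200/V50 at 3, 6 and 12 h, with 1 library per line, agent and time, and a DMSO and a parental library at 0 h in each line. No control library belongs to 3, 6 or 12 h. In every comparison with control, agent and time in the experiment therefore cannot be told apart. The knockout part held 11 MDA-MD-231 libraries: CDK1 KO, CDK7 KO, CDK9 KO, CDK7/9 KO and Empty vector at 72 and 96 h, and a second parental library at 0 h. The series describes its agents as inhibitors of CDK7, of CDK9, or both together, but no label ties SY200 or V50 to its kinase or gives a dose. They give no clone number for the knockouts. Nothing states that libraries came from separate cultures. The p-values below therefore measure only the spread between these libraries. Each agent and time had its own term in the inhibitor fit, so there it is mainly the spread between the lines at the same agent and time. It also holds the spread of DMSO from parental libraries where these were pooled as controls. In the knockout part it is the spread left after genotype and time.

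CDK7 is the kinase of the CDK-activating complex and of the general transcription factor TFIIH, and phosphorylates the tail of RNA polymerase II near gene starts. CDK9, the kinase of P-TEFb, releases paused polymerase into elongation. Agents against either kinase are known for lowering short-lived RNAs, so genes whose share of the RNA goes up are the other side of the response. CYP4Z1 encodes a cytochrome P450 that hydroxylates fatty acids and is made mainly in mammary tissue and breast carcinoma. CLCA2 encodes a membrane protein that modulates calcium-activated chloride currents, is expressed in mammary and squamous epithelium and is a known target of p53. CTSK encodes cathepsin K, the lysosomal cysteine protease with which osteoclasts degrade collagen. LINC00641 is a long noncoding RNA next to the gene of the splicing factor HNRNPC.

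In GRCh38 with the GENCODE 29 annotation, CYP4Z1 (ENSG00000186160.4) lay on the plus strand at chr1:47067488-47118319. It began 16736 bases past the 3′ end of CYP4X1, a related P450 gene of the same strand. CLCA2 lay on the plus strand at chr1:86424086-86456558, with CLCA1 11809 bases further on. CTSK lay on the minus strand at chr1:150796208-150808323, and its start was 1381 bases past the 3′ end of ARNT, which runs the same way. LINC00641, annotated as a processed transcript, lay on the minus strand at chr14:21200079-21206900, 2235 bases past the 3′ end of HNRNPC. The 3′ tags of ARNT and HNRNPC would thus map close to the starts of CTSK and LINC00641, while tags of these 2 genes map to their own 3′ ends.

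Promoter windows are shown for the pair that varied together most closely, CYP4Z1 and CLCA2, and for LINC00641, whose time course differed from theirs. Each runs from 250 bases before to 50 bases after a RefSeq transcript start in GRCh38.p14, read 5′ to 3′ on the gene's strand, at chr1:47066981-47067280, chr1:86423921-86424220 and chr14:21206851-21207150. Capitals mark matches on either strand to 4 motifs, namely the TATA box hexamer TATAAA, the CCAAT box, the GC box core GGGCGG and the AP-1 site TGANTCA.

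CYP4Z1: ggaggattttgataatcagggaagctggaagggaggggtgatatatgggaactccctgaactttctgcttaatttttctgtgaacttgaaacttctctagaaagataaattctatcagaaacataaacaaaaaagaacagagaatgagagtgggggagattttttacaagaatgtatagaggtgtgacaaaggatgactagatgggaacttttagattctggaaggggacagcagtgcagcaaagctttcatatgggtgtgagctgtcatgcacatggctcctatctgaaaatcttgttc

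CLCA2: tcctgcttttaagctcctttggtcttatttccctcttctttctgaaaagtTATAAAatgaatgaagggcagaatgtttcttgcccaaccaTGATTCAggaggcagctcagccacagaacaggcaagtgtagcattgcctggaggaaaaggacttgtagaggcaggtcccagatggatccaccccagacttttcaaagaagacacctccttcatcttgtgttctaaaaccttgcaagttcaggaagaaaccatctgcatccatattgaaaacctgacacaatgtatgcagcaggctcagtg

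LINC00641: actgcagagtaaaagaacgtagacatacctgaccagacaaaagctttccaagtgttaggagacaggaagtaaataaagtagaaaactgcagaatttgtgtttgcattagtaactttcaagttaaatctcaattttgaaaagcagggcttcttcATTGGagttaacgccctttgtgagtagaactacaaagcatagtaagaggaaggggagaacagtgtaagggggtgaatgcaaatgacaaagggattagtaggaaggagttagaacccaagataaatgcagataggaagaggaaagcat

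The CYP4Z1 window held none of the 4 motifs and no CpG. The CLCA2 window held the TATA box letters 200 bases and the AP-1 letters 160 bases before the start, and likewise no CpG. LINC00641 held a reverse CCAAT 97 bases before this start and 2 CpGs. RefSeq gives this gene a second start, not printed, whose window at chr14:21205454-21205753 held a reverse TATA box 214 bases before the start, none of the other 3 motifs and 3 CpGs. Among 35116 RefSeq promoter windows of the same length, the TATA box was found in 11.53%, the CCAAT box in 34.614%, the GC box in 44.954% and the AP-1 site in 7.709%. The median window had 14 CpGs and a GC content of 58.7%, and 3.961% had no CpG. GC content was 40.0% for CYP4Z1, 44.7% for CLCA2 and 39.0% for LINC00641, each below that median. A match describes letters only and is not a site.

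Library totals ran between 17057908 and 22859779 counts in the inhibitor part and between 16985219 and 22417327 in the knockout part. Reads carried no molecular identifiers, so counting intervals cover counting error alone. Levels are given as CPM, counts scaled to library size, with sizes adjusted by the trimmed mean of M-values (TMM), which sets the bulk of genes level between libraries. Of 12 identity markers fixed for each line, the median over the MDA-MB-468 list was 245 to 298 CPM in inhibitor libraries of MDA-MD-468, against 2.89 to 6.82 CPM in those of MDA-MD-231. The MDA-MB-231 list went the other way, with medians of 28.8 to 70.9 CPM in MDA-MD-468, against 341 to 1043 CPM in MDA-MD-231. Summed within a library, 10 immune markers came to 1.78 to 20.7 CPM and 12 stromal and bone markers to 11.4 to 42.9 CPM across all libraries. Of the osteoclast genes in the latter list, DCSTAMP was at 0 everywhere and OCSTAMP reached at most 0.068 CPM in inhibitor libraries. There, TNFRSF11A ran from 6.12 to 18.6 CPM in MDA-MD-231 and from 12.5 to 30.7 CPM in MDA-MD-468. ACP5 reached at most 0.076 CPM in MDA-MD-231 and ran from 0.544 to 1.78 CPM in MDA-MD-468. The share of counts from the 13 mitochondrial mRNAs, which the nuclear polymerase does not make, was 3.21, 4.66 and 5.05% after 3, 6 and 12 h of SY200/V50 in MDA-MD-231, against 2.51% with DMSO and 2.17% in parental cells. It was 7.06, 9.24 and 13.5% in MDA-MD-468, against 3.93% with DMSO and 3.88% in parental cells. A rise in CPM is thus a rise relative to the bulk of nuclear RNA, and each member is also given per mitochondrial count below. In bulk RNA, fewer cells of a kind and less RNA per cell cannot be told apart.

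CYP4Z1 was higher in all treated MDA-MD-468 libraries. It stood at 46.0, 42.3 and 12.5 CPM after 3, 6 and 12 h of SY200, at 49.1, 40.7 and 27.0 CPM with V50 and at 47.4, 54.6 and 83.6 CPM with SY200/V50, against 4.74 CPM with DMSO and 9.63 CPM in parental cells. The lowest treated library, SY200 at 12 h, was the closest to the controls, and the highest was SY200/V50 at 12 h. Relative to the mean of the 2 controls, the fold was 6.40, 5.89 and 1.74 with SY200, 6.83, 5.66 and 3.75 with V50, and 6.60, 7.60 and 11.6 with SY200/V50. The agents were thus alike at 3 h and apart at 12 h, where the single agents had come down towards the controls and the combination had not. That split depends on the scale, since per mitochondrial mRNA count the combination came down too, with folds of 3.41, 2.75 and 2.44 at 3, 6 and 12 h. The counts behind these levels ran from 103 (95% Poisson interval 84.1 to 125) to 1224 (1156 to 1295).

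Means over the 3 times were 61.9 ± 19.2 CPM for SY200/V50, 38.9 ± 11.2 CPM for V50 and 33.6 ± 18.4 CPM for SY200 (SD, n = 3 libraries each), against 7.19 ± 3.46 CPM for the controls (SD, n = 2). Neighbours among the 3 treatments overlapped in range, and the lowest of them, SY200, did not overlap the controls. In MDA-MD-231, CYP4Z1 had 0 counts in 10 of 11 inhibitor libraries and 1 count in SY200 at 12 h, so no change could be detected there. Over the controls, CYP4Z1 was at least 121-fold higher in MDA-MD-468 (321 counts) than in MDA-MD-231 (0 counts), with MDA-MD-231 put at a floor of 3 counts over its 2 libraries.

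CLCA2 showed nearly the same order of libraries at smaller size. It reached 45.0, 37.3 and 21.9 CPM after 3, 6 and 12 h of SY200, 44.1, 40.5 and 36.0 CPM with V50 and 45.0, 44.2 and 66.9 CPM with SY200/V50 in MDA-MD-468, against 14.5 CPM with DMSO and 16.97 CPM in parental cells. All 9 treated libraries lay above both controls, with SY200 at 12 h again the lowest and SY200/V50 at 12 h the highest. The fold over the control mean was 2.86, 2.37 and 1.39 with SY200, 2.81, 2.57 and 2.29 with V50, and 2.86, 2.81 and 4.25 with SY200/V50. Averages over times came to 52.0 ± 12.9 CPM for SY200/V50, 40.2 ± 4.08 CPM for V50 and 34.7 ± 11.8 CPM for SY200 (SD, n = 3 each), against 15.7 ± 1.75 CPM for the controls (SD, n = 2). The lowest SY200/V50 library, at 6 h, had 44.2 CPM and the highest V50 library, at 3 h, had 44.1 CPM, so those ranges were barely apart. In MDA-MD-231 the gene had 0 to 3 counts per library, at or below the floor of 3. Over the controls it had 699 counts in MDA-MD-468 and 1 in MDA-MD-231, a ratio of 789 per count sequenced with an exact 95% counting interval of 141 to 31203.

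**Figure D1:**
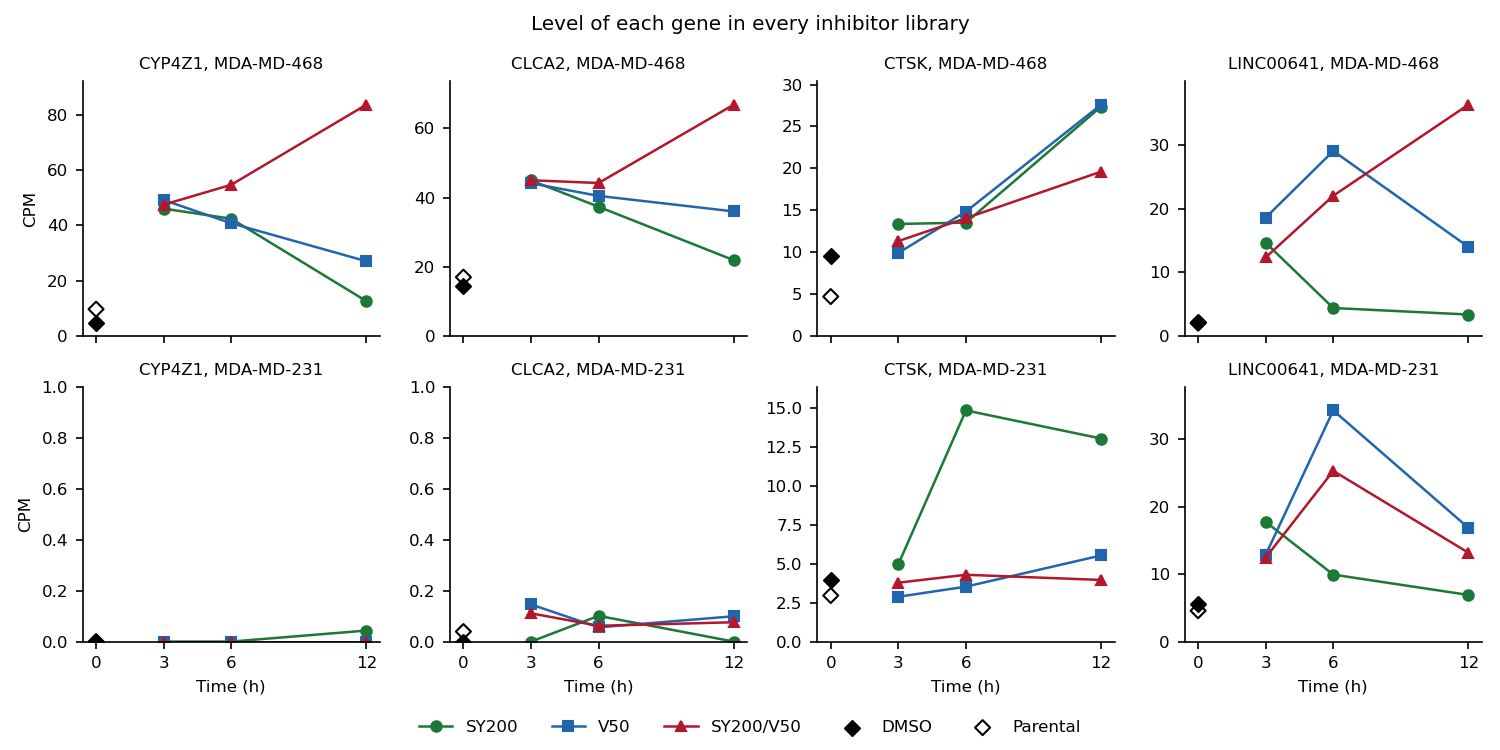
Level of CYP4Z1, CLCA2, CTSK and LINC00641 in CPM against time in hours, each line apart, with 1 point per library and the DMSO and parental libraries at 0 h. In MDA-MD-468, SY200/V50 at 12 h is the highest library for CYP4Z1 (83.6 CPM), CLCA2 (66.9 CPM) and LINC00641 (36.3 CPM), while CTSK peaks with V50 (27.6 CPM) and SY200 (27.4 CPM) at 12 h.

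CTSK was higher in every treated MDA-MD-468 library, and its level was greatest at 12 h. It measured 13.4, 13.5 and 27.4 CPM after 3, 6 and 12 h of SY200, 9.90, 14.8 and 27.6 CPM with V50 and 11.3, 14.0 and 19.6 CPM with SY200/V50, against 9.48 CPM with DMSO and 4.68 CPM in parental cells. V50 at 3 h stood only just above the DMSO library. In MDA-MD-231 it measured 4.96, 14.8 and 13.02 CPM with SY200, 2.87, 3.52 and 5.53 CPM with V50 and 3.78, 4.28 and 3.95 CPM with SY200/V50, against 3.95 CPM with DMSO and 2.95 CPM in parental cells. There SY200 gave the highest levels, at 6 and 12 h, with folds over the control mean of 1.44, 4.30 and 3.77. Folds were 0.832, 1.02 and 1.60 with V50 and 1.09, 1.24 and 1.15 with SY200/V50. Of the 9 treated MDA-MD-231 libraries, 6 lay above both controls and 1, V50 at 3 h, lay below both.

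By treatment, CTSK in MDA-MD-231 averaged 10.9 ± 5.26 CPM with SY200, 4.01 ± 0.258 CPM with SY200/V50 and 3.97 ± 1.38 CPM with V50 (SD, n = 3 each), against 3.45 ± 0.704 CPM in controls (SD, n = 2). The SY200 range did not overlap that of SY200/V50 there, although both groups received SY200. In MDA-MD-468 the averages were 18.1 ± 8.05 CPM with SY200, 17.4 ± 9.14 CPM with V50 and 15.0 ± 4.23 CPM with SY200/V50 (SD, n = 3 each), against 7.08 ± 3.39 CPM in controls (SD, n = 2). These 3 treated ranges overlapped, and all lay above the controls.

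LINC00641 was higher in all treated libraries of both lines, and its time course differed by agent. In MDA-MD-468 it measured 14.6, 4.37 and 3.34 CPM after 3, 6 and 12 h of SY200, 18.6, 29.1 and 14.0 CPM with V50 and 12.3, 22.02 and 36.3 CPM with SY200/V50, against 2.16 CPM with DMSO and 1.99 CPM in parental cells. In MDA-MD-231 it measured 17.7, 9.92 and 6.90 CPM with SY200, 12.9, 34.2 and 16.8 CPM with V50 and 12.4, 25.3 and 13.2 CPM with SY200/V50, against 5.58 CPM with DMSO and 4.57 CPM in parental cells. SY200 gave its highest level at 3 h in both lines and V50 at 6 h in both lines. SY200/V50 peaked at 6 h in MDA-MD-231 and was highest at 12 h in MDA-MD-468, where the fold over controls reached 17.5, against 2.59 at 12 h in MDA-MD-231.

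Mean LINC00641 levels in MDA-MD-468 were 23.6 ± 12.1 CPM for SY200/V50, 20.5 ± 7.73 CPM for V50 and 7.44 ± 6.24 CPM for SY200 (SD, n = 3 each), against 2.08 ± 0.123 CPM for controls (SD, n = 2). The corresponding MDA-MD-231 means were 16.96 ± 7.21 CPM for SY200/V50, 21.3 ± 11.4 CPM for V50 and 11.5 ± 5.58 CPM for SY200 (SD, n = 3 each), against 5.07 ± 0.713 CPM for controls (SD, n = 2). Adjacent treatments overlapped in range in both lines, and SY200 lay above the controls in both. Its smallest count was 45, in MDA-MD-468 parental cells.

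Genes with all 9 treated libraries above both controls made up 11.3% of 18911 genes in MDA-MD-468, where all 4 members had this pattern, and 5.96% in MDA-MD-231, where LINC00641 had it. Since the members were picked for such a rise, nothing follows from that count. Per 1000 mitochondrial mRNA counts, a scale chosen after the data were seen, CYP4Z1 in MDA-MD-468 remained above both controls in 8 of 9 treated libraries (fold 1.22 to 4.05). LINC00641 did so in 9 of 9 in MDA-MD-468 (1.12 to 6.29) and 8 of 9 in MDA-MD-231 (0.723 to 3.67). CLCA2 did so in 6 of 9 (0.887 to 1.62). CTSK did so in 2 of 9 in MDA-MD-468 (0.571 to 2.67) and 3 of 9 in MDA-MD-231 (0.320 to 3.36), the 3 being SY200. On that scale, SY200/V50 at 12 h was below the control mean for CLCA2 and CTSK in MDA-MD-468 and for CTSK and LINC00641 in MDA-MD-231.

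**Figure D2:**
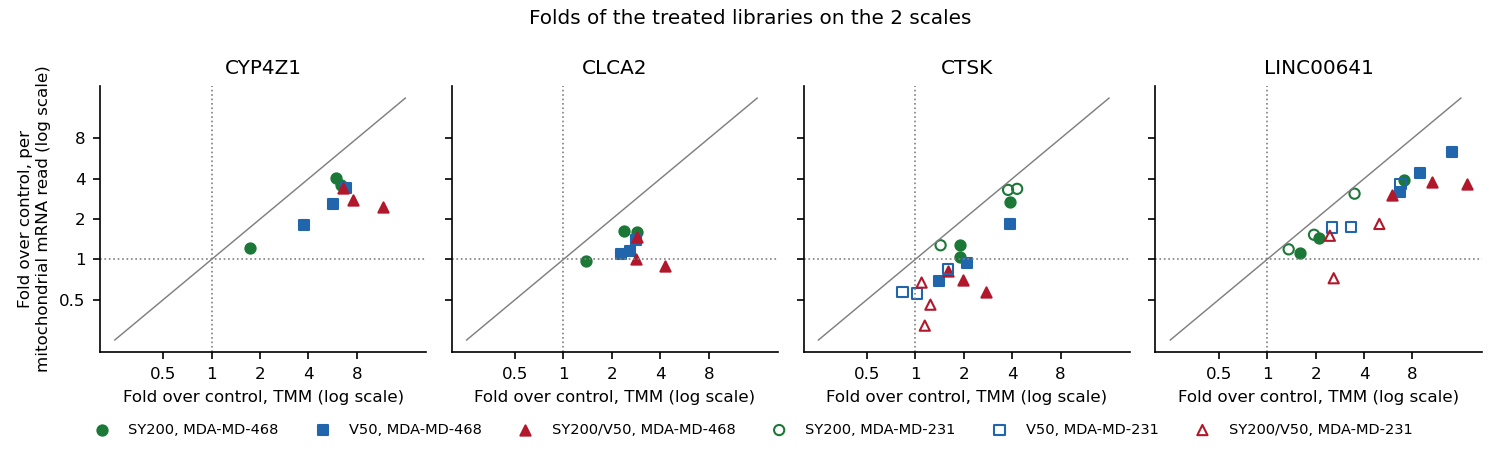
Fold over the mean of the line's 2 controls for each member and treated library, as CPM and per 1000 mitochondrial mRNA counts. CTSK in MDA-MD-231 with SY200/V50 at 12 h has a fold of 1.15 in CPM and 0.320 per mitochondrial count, and LINC00641 in MDA-MD-468 stays above 1 on both scales.

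The change between 3 and 12 h was tested within each agent, over both lines, for CTSK and LINC00641, with edgeR's quasi-likelihood F test and Benjamini-Hochberg adjustment over all genes. The treated libraries compared here also took part in the choice of the members. A gene high at 1 of these times was more likely to be chosen, so the p-values are not independent of the choice. Neither gene passed at an adjusted p of 0.05, where 1.95% of genes passed for SY200, 12.8% for V50 and 18.3% for SY200/V50. With SY200, the log2 difference of 12 h over 3 h was -1.69 ± 0.49 for LINC00641 (SE, adjusted p = 0.0731), while CTSK had the opposite sign at 1.23 ± 0.46 (SE, adjusted p = 0.142). CTSK was likewise higher at 12 h with V50, by 1.25 ± 0.47 on the log2 scale (SE, adjusted p = 0.0867). For SY200/V50, LINC00641 had a log2 difference of 1.04 ± 0.48 (SE, adjusted p = 0.142) and CTSK one of 0.48 ± 0.47 (SE, adjusted p = 0.519), and mitochondrial scaling turned these to -0.19 and -0.73.

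CYP4Z1 and CLCA2 were read in MDA-MD-468 alone, with 1 library per agent and time, so their change between times is given only as the levels above. By DESeq2, LINC00641 with SY200 passed (-1.70, adjusted p = 0.0225). Leaving out the MDA-MD-231 SY200/V50 library of 12 h gave LINC00641 a log2 difference of 1.74 for SY200/V50 (adjusted p = 0.0259). In MDA-MD-231 its levels at 3 and 12 h were close, at 12.4 and 13.2 CPM.

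**Figure D3:**
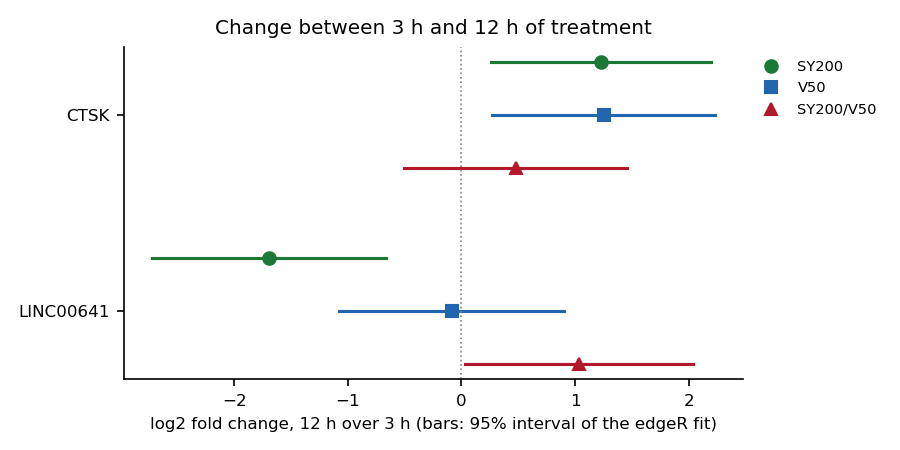
Log2 difference of 12 h over 3 h for CTSK and LINC00641 within SY200, V50 and SY200/V50, with bars for the 95% confidence interval of the edgeR fit over both lines. With SY200, LINC00641 (-1.69) lies below 0 and CTSK (1.23) lies above, and neither passed the adjusted threshold.

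Whether the response differed by line was tested for CTSK and LINC00641. The members were chosen by their response over control in these same libraries, so the p-values and intervals of this test are not independent of that choice. The line-specific log2 fold for CTSK was 1.27 in MDA-MD-468 and 1.53 in MDA-MD-231 with SY200, 1.14 and 0.13 with V50, and 1.01 and 0.21 with SY200/V50. The difference, MDA-MD-468 minus MDA-MD-231, was -0.26 ± 0.49 for SY200, 1.01 ± 0.50 for V50 (SE, adjusted p = 0.519) and 0.80 ± 0.50 for SY200/V50 (SE, adjusted p = 0.450) by edgeR. LINC00641 had log2 folds of 3.36 in MDA-MD-468 and 1.70 in MDA-MD-231 with SY200/V50, a difference of 1.67 ± 0.48 (SE, adjusted p = 0.147) with a 95% confidence interval of 0.64 to 2.697. With V50 the difference was 1.27 ± 0.48 (SE, adjusted p = 0.413).

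No gene passed this edgeR test for any treatment (0% of 18911), though 1048, 1873 and 3009 genes had an unadjusted p below 0.05 for SY200, V50 and SY200/V50. DESeq2 called 34, 122 and 423 genes, and among the members LINC00641 for SY200/V50 (1.77, adjusted p = 0.0317).

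In control cells, CTSK was higher in MDA-MD-468 than in MDA-MD-231, at a log2 difference of 0.98 ± 0.38 (SE, adjusted p = 0.0431). LINC00641 was lower in MDA-MD-468, at -1.34 ± 0.39 (SE, adjusted p = 0.00847). These edgeR calls stand against a background of 53.8% of genes called between the lines. The CTSK call was lost in 8 of 22 fits that left out 1 library, among them all but 1 of the 4 control libraries: 0.41 without MDA-MD-468 DMSO, 0.81 without MDA-MD-231 Parental and 1.23 without MDA-MD-231 DMSO. It was also lost without the 6 h library of V50 in MDA-MD-231 (0.98) and without the 6 h (0.98 in each line) or 12 h (0.88 in each line) library of SY200/V50. The LINC00641 call was lost without MDA-MD-231 DMSO (-1.16) or MDA-MD-468 Parental (-1.26). A difference of DMSO from parental libraries was not detectable for CTSK, with a log2 difference of 0.69 ± 0.46 (SE, adjusted p = 0.763), or LINC00641, with 0.23 ± 0.51 (SE, adjusted p = 0.960), where edgeR called 0.037% of genes.

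Loss of the kinases themselves was examined in the knockout part, whose libraries had no share in choosing the members. CDK7 RNA stood at 15.2 and 13.6 CPM in CDK7 KO and 15.6 and 17.2 CPM in CDK7/9 KO at 72 and 96 h, against 48.7 and 65.9 CPM with Empty vector. CDK9 RNA stood at 33.3 and 36.5 CPM in CDK9 KO and 34.3 and 36.7 CPM in CDK7/9 KO, against 70.0 and 61.5 CPM. CDK1 RNA was 82.1 and 85.2 CPM in CDK1 KO, against 177 and 280 CPM with Empty vector, yet the second parental library had 83.6 CPM. A 3′ tag need not lie in the edited exon, so these levels do not measure editing.

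CTSK measured 7.09 and 4.74 CPM in CDK1 KO, 6.56 and 5.96 CPM in CDK7 KO, 6.81 and 7.34 CPM in CDK9 KO and 7.35 and 7.08 CPM in CDK7/9 KO at 72 and 96 h, against 4.97 and 6.02 CPM with Empty vector. CDK9 KO and CDK7/9 KO lay above both Empty vector libraries, by less than the test could separate. The edgeR log2 fold was 0.38 ± 0.20 for CDK7/9 KO (SE, adjusted p = 0.234, 95% interval -0.070 to 0.82) and 0.35 ± 0.20 for CDK9 KO (SE, adjusted p = 0.293).

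LINC00641 measured 9.50 and 10.7 CPM in CDK1 KO, 8.59 and 6.81 CPM in CDK7 KO, 8.07 and 10.2 CPM in CDK9 KO and 9.15 and 8.32 CPM in CDK7/9 KO, against 8.17 and 8.60 CPM with Empty vector. Its log2 folds ran from -0.12 ± 0.17 in CDK7 KO to 0.26 ± 0.17 in CDK1 KO, and for CDK7/9 KO the 95% interval was -0.33 to 0.43. Of the 2 members tested, 0 passed in any genotype by edgeR with TMM scaling, where 0.352% of 16783 genes passed for CDK1 KO, 0.0238% for CDK7 KO, 8.16% for CDK9 KO and 11.3% for CDK7/9 KO. Scaled to mitochondrial mRNAs, LINC00641 passed as lower in CDK9 KO (-0.73, adjusted p = 0.0209) and CDK7/9 KO (-0.76, adjusted p = 0.0180), where that scaling put the median of all genes at -0.82 and -0.81. CYP4Z1 had 0 to 2 counts and CLCA2 0 to 6 counts per knockout library and neither was tested, so a rise of the size seen in MDA-MD-468 was not examined in knockout cells of that line.

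**Figure D4:**
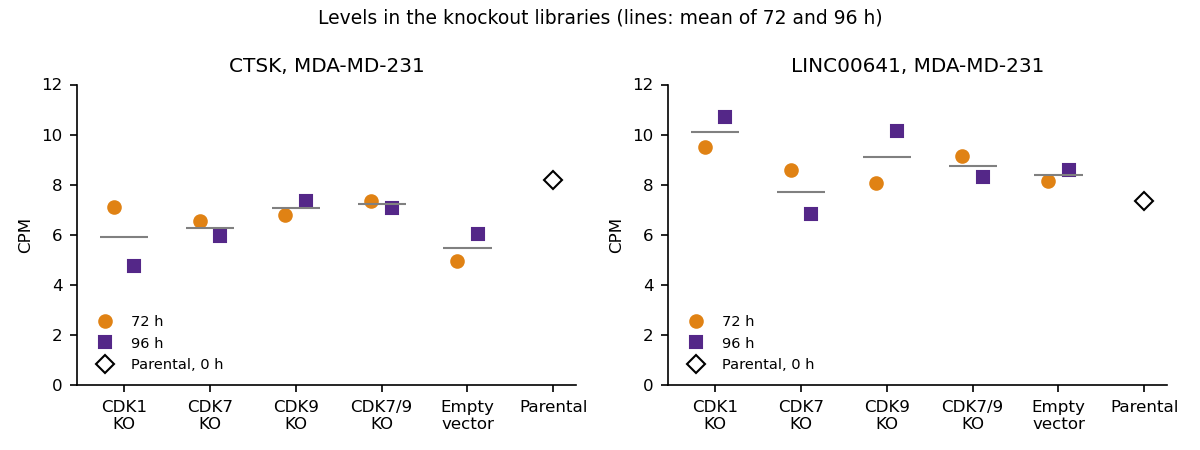
CTSK and LINC00641 levels in CPM in the knockout part, with 1 point per library at 72 and 96 h and the parental library at 0 h. CTSK in CDK7/9 KO (7.35 and 7.08 CPM) lies above Empty vector (4.97 and 6.02 CPM), whereas LINC00641 (9.15 and 8.32 CPM) overlaps it (8.17 and 8.60 CPM).

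Related genes give the setting of each member. In the CYP4 family, 9 genes beside CYP4Z1 were tested, and 0, 1 and 5 of them rose with SY200, V50 and SY200/V50 by edgeR, with 0 lower. Over all genes, 0.968% rose and 1.02% fell with SY200, 10.4% and 11.9% with V50, and 24% and 24.2% with SY200/V50. The list's median log2 fold was 0.69, 0.75 and 1.40, against -0.012, -0.0039 and 0.087 over all genes, though several of its genes had few counts. CYP4A22, called with SY200/V50, had a control mean of 0.18 CPM in MDA-MD-468 and 1.90 CPM in its highest library. A gene so low in controls passes the low-count filter only through treated libraries, which tilts these counts and medians upwards. The same would hold for any such gene in the lists below. In MDA-MD-231 only CYP4V2 was well read (median 18.8 CPM), and medians of the others ran from 0 to 0.039 CPM. Calls of those others rest on MDA-MD-468, with 1 library per agent and time. CYP4X1, the upstream neighbour, was among the genes called, at 1.56 on the log2 scale with SY200/V50 and 1.14 with V50. As it was read in MDA-MD-468 alone, only effect sizes are given. With SY200 its value was 0.92, which was not called.

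In MDA-MD-468, CYP4X1 measured 126, 123 and 56.8 CPM after 3, 6 and 12 h of SY200, 130, 118 and 85.6 CPM with V50 and 123, 148 and 190 CPM with SY200/V50, against a control mean of 49.8 CPM. These are the libraries in which CYP4Z1 was also high, and CYP4X1 was at or near 0 in MDA-MD-231. Its SY200/V50 call was lost when the MDA-MD-468 library of 3 h (0.69), 6 h (1.82) or 12 h (0.53) was left out, as 1 line then lacked that time. CYP4Z2P, a pseudogene of CYP4Z1 that was likewise read in MDA-MD-468 alone, was also called as higher with SY200/V50, at 2.56. Its call was lost without the same libraries (2.37, 2.23 and 2.20). Of the last 300 bases of CYP4Z1, 86 could be aligned to it at 95.3% identity, so reads of the 2 genes may be partly shared.

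Most cathepsins are lysosomal proteases. Of 12 tested beside CTSK, 0, 7 and 10 rose with SY200, V50 and SY200/V50 by edgeR with TMM scaling and 0 fell. The 4 cathepsins named here for SY200/V50 were nevertheless lower by mitochondrial scaling. The list's median log2 fold was 0.25, 0.43 and 0.86. CTSB, CTSH and CTSD rose by 0.86 ± 0.10, 0.98 ± 0.13 and 0.99 ± 0.13 with SY200/V50 (SE, adjusted p = 3.29e-06, 1.63e-05 and 2.04e-05), but stood at -0.57, -0.44 and -0.44 by mitochondrial scaling. CTSS, which lies 30250 bases past CTSK on the same strand, rose by 1.12 ± 0.20 with SY200/V50 (SE, adjusted p = 0.000192), and by the mitochondrial scale stood at -0.30. In MDA-MD-231 with SY200/V50 at 12 h, CTSS reached 29.6 CPM, against a control mean of 8.66 CPM, while CTSK there was 3.95 CPM, against 3.45 CPM. Mitochondrial scaling moved the median of all genes to -0.44, -0.92 and -1.33 for SY200, V50 and SY200/V50, and the 4 cathepsins lay above that last median.

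The cystatins, inhibitors of cysteine cathepsins, had 0, 1 and 3 of 7 genes higher and 0 lower by edgeR with TMM scaling, with median log2 folds of -0.03, 0.21 and 0.75. CSTB rose by 0.66 ± 0.10 with SY200/V50 (SE, adjusted p = 7.33e-05) and was at -0.77 by mitochondrial scaling. Among the CLCA family and calcium-activated chloride channels, 0, 0 and 3 of 7 tested rose and 0 fell, with medians of -0.06, 0.16 and 0.55. ANO6, an ion channel and lipid scramblase, rose by 0.43 ± 0.13 with SY200/V50 (SE, adjusted p = 0.0117), though it was at -1.0 by mitochondrial scaling and lost its call without MDA-MD-231 Parental (0.32). CLCA1 had no count in any library and CLCA4 at most 2, so CLCA2 was the member of its cluster with signal.

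Targets of p53, a group to which CLCA2 is known to belong, had more genes lower than higher with V50 and SY200/V50. Of 23 tested, 0, 1 and 1 rose and 1, 9 and 14 fell with SY200, V50 and SY200/V50 by edgeR, and the median log2 fold was 0.06, -0.35 and -1.06. PLK2 and PLK3, kinases of the Polo family, fell by 2.91 ± 0.23 and 2.27 ± 0.20 on the log2 scale with SY200/V50 (SE, adjusted p = 1.52e-07 and 3.68e-07). MDM2, the ligase that degrades p53, fell by 1.38 ± 0.13 (SE, adjusted p = 5.69e-07).

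Luminal and apocrine mammary genes, the class that CYP4Z1 and CLCA2 are usually counted with, were split. Of 12 tested, 0, 1 and 3 rose and 0, 2 and 3 fell with SY200, V50 and SY200/V50 by edgeR, with medians of -0.19, -0.16 and 0.28. FOXA1 and GATA3, transcription factors of luminal cells, fell by 2.79 ± 0.30 and 2.08 ± 0.27 with SY200/V50 (SE, adjusted p = 2.01e-06 and 1.13e-05). In MDA-MD-468, FOXA1 had a control mean of 40.2 CPM and GATA3 one of 43.2 CPM, and their lowest treated libraries there had 5.06 and 8.43 CPM. CYP4Z1 and CLCA2 were above both controls in every treated library of that line. A link between these 2 genes and either factor was not tested. AGR2, a secretory-pathway protein of this class, rose by 1.04 ± 0.30 (SE, adjusted p = 0.00912), a call that was lost without the DMSO library (0.77) or the 6 h SY200/V50 library (0.82) of MDA-MD-468 and stood at -0.38 by mitochondrial scaling. The basal and squamous epithelial genes had 0, 0 and 2 of 13 higher and 1, 1 and 1 lower, with medians of -0.43, -0.24 and 0.17.

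Genes named LINC gave LINC00641 a large comparison class. Of 325 others tested by edgeR, 7, 38 and 59 rose (2.15%, 11.7% and 18.2%) and 0, 17 and 24 fell with SY200, V50 and SY200/V50, with medians of 0.13, 0.19 and 0.38. LINC02560 rose by 5.40 ± 0.78 with SY200/V50 (SE, adjusted p = 3.39e-05), against 2.48 for LINC00641. It ran from 4.88 to 6.00 over fits that left out 1 library. LINC00892 rose by 2.32 ± 0.37 (SE, adjusted p = 7.28e-05). LINC01963 rose by 1.07 ± 0.17 with SY200/V50 (SE, adjusted p = 6.48e-05), and stood at -0.36 by mitochondrial scaling. LINC02693 fell by 2.09 ± 0.21 (SE, adjusted p = 1.34e-06). HNRNPC, which lies just upstream of LINC00641, rose by 0.58 ± 0.10 with V50 (SE, adjusted p = 0.000812) and by 0.86 ± 0.10 with SY200/V50 (SE, adjusted p = 3.02e-06), while its SY200/V50 value was -0.57 by mitochondrial scaling. Its fold in MDA-MD-468 was 1.51, 1.73 and 2.06 after 3, 6 and 12 h of SY200/V50, against LINC00641 folds of 5.94, 10.6 and 17.5 in the same libraries. In MDA-MD-231 the HNRNPC folds were 1.51, 1.88 and 2.64, against 2.45, 4.98 and 2.59 for LINC00641. The 2 genes were thus alike at 12 h in that line. ARNT, upstream of CTSK, did not pass with SY200/V50 (-0.35 ± 0.15, SE, adjusted p = 0.0574), and it passed in 7 of 22 fits that left out 1 library, with values between -0.43 and -0.34 over all 22. GOLPH3L, on the other side of CTSK, fell by 1.64 ± 0.18 (SE, adjusted p = 3.11e-06).

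**Figure D5:**
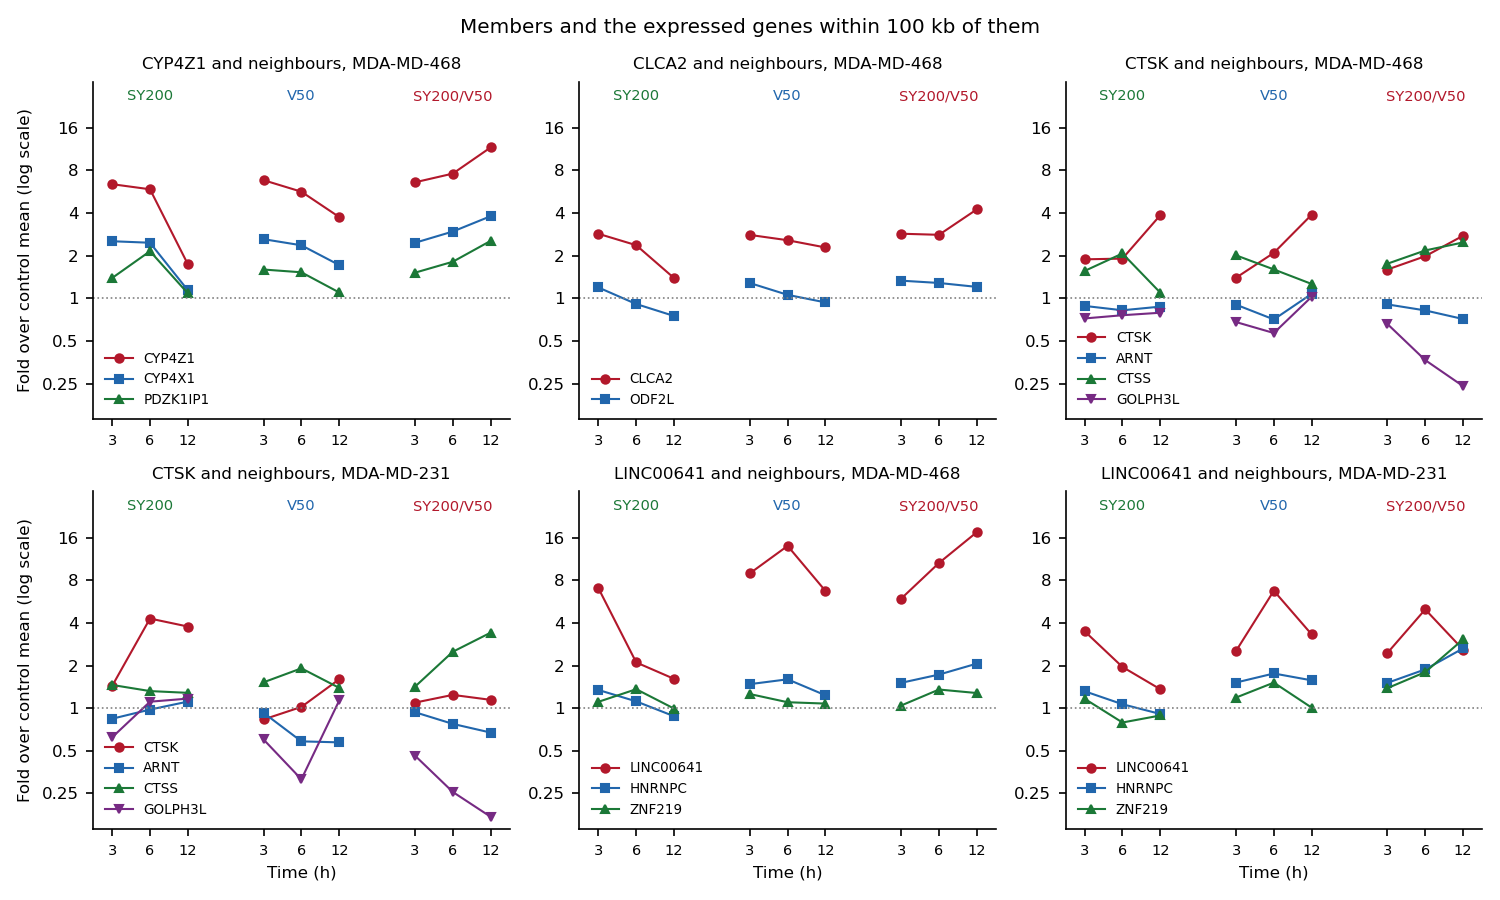
Fold over the control mean by time for members and the expressed genes within 100 kb of them. In MDA-MD-468 with SY200/V50 at 12 h, CYP4X1 runs with CYP4Z1 (3.80 and 11.6), and HNRNPC moves less than LINC00641 (2.06 and 17.5). In MDA-MD-231, HNRNPC and LINC00641 are alike with SY200/V50 at 12 h (2.64 and 2.59).

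Across the 11 inhibitor-part libraries of MDA-MD-468, CYP4Z1 and CLCA2 had a Pearson r of 0.986 on log2(CPM + 1). For CYP4Z1, CLCA2 was the closest of 9590 candidate genes, followed by AGR2 (0.982) and SELENOP (0.981), a secreted selenium carrier. For CLCA2 the closest were CYP4Z1, SELENOP and CP, the copper carrier ceruloplasmin (0.974 each for the last 2). SELENOP measured 459, 485 and 565 CPM after 3, 6 and 12 h of SY200/V50 in MDA-MD-468, and 166 CPM after 12 h of SY200, against 110 CPM with DMSO and 129 CPM in parental cells. The 12 h split between SY200 and the combination was thus like that of CYP4Z1, which follows from picking SELENOP for likeness over these same libraries. These values are CPM, and SELENOP was not given per mitochondrial count. The mitochondrial share there was 7.06% at 3 h and 13.5% at 12 h of SY200/V50. The libraries share agents and times, so these r values only describe likeness.

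LINC00641 had an r of 0.860 with CYP4Z1 and 0.898 with CLCA2 in that line, and its closest genes were FANCI (0.971), HP1BP3 (0.964) and ZFAND6 (0.963). In MDA-MD-231 its closest were DPP8 (0.899), SUPT16HP1 (0.873) and ARIH2 (0.870). CTSK stood apart from the other members, with r between 0.29 and 0.37 in MDA-MD-468 and -0.19 with LINC00641 in MDA-MD-231. Its closest genes were TMEM128 (0.953), AKAP8L (0.949) and DCAF8 (0.943) in MDA-MD-468 and DNAJC25 (0.965), RC3H2 (0.948) and SPRING1 (0.937) in MDA-MD-231. No gene was among the 3 closest to CTSK, or to LINC00641, in both lines. Lists of 3 from such large sets of candidates would seldom share a gene, and the candidates differed between the lines. Nothing follows from the lack of a shared gene. DNAJC25, a heat shock protein 40 relative, measured 16.2, 24.8 and 23.7 CPM after 3, 6 and 12 h of SY200 in MDA-MD-231, against 12.7 CPM with DMSO and 10.6 CPM in parental cells. With SY200/V50 it measured 13.5 and 14.4 CPM there after 6 and 12 h, a split between SY200 and the combination like that of CTSK. That likeness follows from picking DNAJC25 for its high r with CTSK over these same libraries.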

How the data were processed

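The authors deposited 1 table of raw counts per gene for 33 libraries. Per the labels' protocols, polyadenylated RNA was made into QuantSeq 3′ mRNA-Seq FWD libraries and sequenced on a HiSeq2500, and per the submitters' processing notes the reads were checked with FastQC and aligned with STAR 2.7.10a to GRCh38. For counting, the tool, strand setting and annotation were not given in the sources used here. A 3′ tag is counted per transcript end, so levels do not grow with transcript length. Of 59428 rows, 698 carry an Ensembl identifier only. Totals ranged from 16985219 to 22859779 counts per library.

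From these counts, edgeR 4.0.16 (R 4.3.3) was run with its filter on low counts (minimum count 10, minimum total 15), TMM scaling and the quasi-likelihood F test, with Benjamini-Hochberg adjustment over all genes tested and a threshold of 0.05. The inhibitor fit held all 22 libraries with cell line as a term (18911 genes, 11 residual degrees of freedom). A line-by-treatment fit had 8 and a fit with DMSO apart from parental 10. The knockout fit held 10 libraries with time as a term (16783 genes, 4 residual degrees of freedom), and the parental library, which has no matching time, was left out. CYP4Z1 and CLCA2 passed the filter through MDA-MD-468 alone. Standard errors were derived from the F statistic. On simulated data, log2 changes of 1 and 2 were recovered in 48.4% and 90% of cases for V50 against control (17884 genes), in 15.3% and 63.5% for V50 at 12 h against 3 h (17864 genes), and in 75.8% and 83.7% for CDK9 KO (16441 genes). DMSO and parental libraries were not duplicates of each other: their counts gave a chi-square of 27.7 per degree of freedom for MDA-MD-468 and 44.8 for MDA-MD-231.

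The members and the gene lists were chosen with earlier results of these data known. Genes named beside the members were the up to 4 genes of each list with the smallest adjusted p, genes within 100 kb of a member, and the 3 genes of highest r per member and line. Alternatives were DESeq2 1.42.0, DESeq2 size factors, no low-count filter, no term for line or time, DMSO alone as control, scaling to mitochondrial mRNAs, and leaving out each library.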

Additional observations from a re-analysis of the deposited data

Results flagged for a closer look

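CTSK stood at 8.19 CPM in the parental library of the knockout part, which entered no comparison because it has no matching time. That level lies above both Empty vector libraries of the same line, at 4.97 and 6.02 CPM, and above every knockout library.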

How the results depend on the processing

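Each line, agent and time has 1 library, which limits these results, and depth leaves CYP4Z1 and CLCA2 unread in MDA-MD-231. No paired analysis was possible because the labels give no replicate numbers that groups share; line in the inhibitor part and time in the knockout part were terms of the fits. In the comparisons tested for CTSK and LINC00641, DESeq2 size factors changed no call. Without the term for line neither passed for 12 h against 3 h or for DMSO over parental, and without that for time neither passed in a knockout, as with those terms. All values below are log2 differences. The causes of the changes were not tested.

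Scaling to mitochondrial mRNAs moved the median of all genes to -0.44, -0.92 and -1.33 for SY200, V50 and SY200/V50, and to -0.82 and -0.81 for CDK9 KO and CDK7/9 KO. Against control with SY200, V50 and SY200/V50, it gave 1.41, 1.31 and 1.49 for CYP4Z1, 0.43, 0.36 and 0.16 for CLCA2, 1.01, -0.23 and -0.79 for CTSK, and 0.84, 1.61 and 1.09 for LINC00641. For SY200/V50 at 12 h against 3 h it gave -0.48 for CYP4Z1, -0.81 for CLCA2, -0.73 for CTSK and -0.19 for LINC00641. CTSK was at -0.29 in CDK1 KO, -0.15 in CDK7 KO, -0.50 in CDK9 KO and -0.45 in CDK7/9 KO, and LINC00641 turned to -0.10 in CDK1 KO and, now past the threshold, to -0.73 in CDK9 KO and -0.76 in CDK7/9 KO. CTSK between control lines was 0.28. With SY200/V50 it turned round AGR2 (-0.38), ANO6 (-1.0), CST3 (-0.44), CSTB (-0.77), CTSA (-0.70), CTSB (-0.57), CTSD (-0.44), CTSH (-0.44), CTSS (-0.30), HNRNPC (-0.57), LINC01963 (-0.36), S100A2 (-0.52) and TTYH3 (-0.97).

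With DMSO alone as the control, CYP4Z1 was at 2.58, 2.93 and 3.57 for SY200, V50 and SY200/V50, and at -1.76 for SY200 at 12 h against 3 h, where 1 library stands at each time. CTSK was at 0.36 for V50 and 0.31 for SY200/V50. The control line difference no longer passed for CTSK (1.23) or LINC00641 (-1.39). CTSK also missed the threshold there with no filter on low counts (1.0, adjusted p = 0.0671, range over the settings other than left-out libraries 0.28 to 1.23). DESeq2 called LINC00641 for SY200 at 12 h against 3 h (-1.70) and for its line difference with SY200/V50 (1.77).

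Over fits that left out 1 library each, CYP4Z1 ran from 1.54 to 3.47 for SY200, 1.85 to 2.92 for V50 and 2.31 to 3.56 for SY200/V50 against control, and from -1.86 to 2.67, -1.33 to 0.57 and -1.50 to 2.14 for 12 h against 3 h. DMSO over parental ran from -2.05 to 1.06. CLCA2 ran from -0.26 to 1.23 for SY200 and 1.26 to 1.69 for V50, and from -3.69 to 2.81, -1.33 to 0.37 and -0.31 to 0.51 for 12 h against 3 h. The extremes of both genes come from leaving out MDA-MD-468 libraries, after which a time rests on near-zero MDA-MD-231 counts. CTSK ran from 1.06 to 1.64 for SY200, 0.71 to 1.64 for V50 and -0.23 to 0.84 for SY200/V50 at 12 h against 3 h, -0.68 to 0.33 for the SY200 line difference, 0.41 to 1.43 between control lines, -0.25 to 0.36 in CDK1 KO and -0.053 to 0.41 in CDK7 KO. LINC00641 ran from 2.02 to 2.72 for SY200/V50, -2.13 to -1.36 for SY200, -0.48 to 0.43 for V50 and -0.37 to 1.74 for SY200/V50 at 12 h against 3 h, -1.45 to -1.16 between control lines, -0.44 to 0.79 for DMSO over parental, -0.37 to 0.067 in CDK7 KO and -0.10 to 0.27 in CDK9 KO. CST3, read in MDA-MD-231 alone, ran from -0.074 to 0.90 and turned round without the SY200/V50 library of 12 h.

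The 375 genes called for SY200 became 973 by DESeq2, 28 with DMSO alone, 227 with no low-count filter and 0 with no term for line. Without that term, V50 called 103 rather than 4225 and SY200/V50 2364 rather than 9114. Mitochondrial scaling called 5299, 14273 and 15832 genes for SY200, V50 and SY200/V50. For SY200 at 12 h against 3 h, 368 became 1383 by DESeq2, 123 with no filter, 208 by mitochondrial scaling and 0 with no line term. For V50 and SY200/V50 at 12 h against 3 h the last setting called 0 and 33, and mitochondrial scaling called 10596 for SY200/V50. DMSO against parental called 7 genes, against 125 by DESeq2, 50 with no filter, 2 by mitochondrial scaling and 0 with no line term. With no filter, the 59 genes of CDK1 KO became 1742, the 4 of CDK7 KO 996, the 1369 of CDK9 KO 2782 and the 1903 of CDK7/9 KO 3212. Mitochondrial scaling called 0, 1, 11411 and 11138 in that order, and DESeq2 called 412 for CDK1 KO and 203 for CDK7 KO. Leaving out 1 knockout-part library moved these counts widely, from 0 or 1 up to 6976, 6239, 6984 and 7329, with 3 residual degrees of freedom. Leaving out 1 inhibitor-part library gave 59 to 624 genes for SY200, 2628 to 4917 for V50 and 7759 to 9206 for SY200/V50. The line-difference test called 12 genes for SY200 and 36 for SY200/V50 by mitochondrial scaling, and 1 for SY200/V50 with no filter.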
